A study of Pan troglodytes with 8 samples.

Results

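Basal intermediate progenitors (bIP) of chimpanzee cerebral organoids were compared with the midpoint, on the log scale, between the radial glia and the neurons of organoids of the same line. The group consisted of 2 bIP libraries of the 8 in the series, taken by their label, and was set against 4 radial glia libraries (2 of apical radial glia, aRG, and 2 of basal radial glia, bRG) and 2 libraries of BCL11B-positive neurons (N). All 8 libraries were bulk ATAC-seq, which counts where a transposase cuts open chromatin, on cells fixed and separated by flow cytometry from organoids of the induced pluripotent stem cell line SandraA in week 8 of culture. The labels name no genetic change or drug treatment in any group, all rest on a single line, and the labels do not say whether libraries 1 and 2 came from separate cultures, so p-values measure only the spread between these samples. Of 218080 regions in the deposited table, 211348 with a chimpanzee identifier were kept, and 198227 had enough counts to be tested. The question was which regions and genes lie off the midpoint in bIP, and which of them lie beyond both ends.

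Intermediate progenitors are the short-lived dividing cells between radial glia and most excitatory neurons of the developing cortex. They detach from the ventricular surface, switch on the T-box factor EOMES, divide a few times in the subventricular zone and hand over to early neuronal factors such as TBR1. Proneural basic helix-loop-helix factors drive this step, while Notch signalling, with ligands on the newborn cells and receptors on the radial glia, holds it back.

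Library totals lay between 24913928 and 34845193 counts, and the biological coefficient of variation was 0.216 over regions. Values are counts per 1000000 counts of a library (CPM). For genes, counts were added over all regions assigned to a protein-coding gene as the nearest one within 50 kb, and 14117 such loci were tested. Regions closest to any other gene were left out, so a locus does not cover all regions within 50 kb. Of the 211348 regions kept, 47822 entered a locus. CPM of a locus is relative to the counts in loci and CPM of a region to the counts in regions, so the scales are not to be compared. Being near a gene does not show control of it. In bulk samples, a larger share of cells with an open region and more opening per cell cannot be told apart. Tests were edgeR's quasi-likelihood test in a single fit of all 8 libraries with Benjamini-Hochberg adjustment over all regions or loci, called at an adjusted p under 0.05. Differences of bIP from radial glia and from N share the bIP libraries. Libraries with the same number deviated together, so a fit with the number as a replicate block is given beside each count that it moved by over 1.5 times.

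At most regions intermediate progenitors were not called off the midpoint, and where they were called they were mostly more open. They were above the midpoint at 30600 regions (15.4% of those tested) and below it at 11483 (5.79%). At gene loci they were above it at 1493 (10.6%) and below it at 573 (4.06%). Thus 72.7% of the called regions and 72.3% of the called loci were higher, while the median deviation was -0.06 over all regions and 0.00 over all loci on the log2 scale. Set against a midpoint of linear CPM, 95.7% of the higher regions stayed above it. All of the lower ones stayed below it, but a linear midpoint is never below the log one of the same values. The lower side was thus set by arithmetic and is no support. An equal mixture of the ends also lies at the linear midpoint, at or above the log one. The replicate block gave 20637 lower regions, 2372 higher loci and 1191 lower loci. The lower counts depended on single libraries. Lower regions numbered 4169 without bIP 1, 3341 without bIP 2, 18128 without N 1 and 7367 without N 2. Higher loci numbered 674 without bIP 1, and lower loci 242 without bIP 1, 224 without bIP 2, 366 without aRG 2 and 368 without bRG 2.

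Where radial glia and neurons differed, the progenitors were on average close to the middle of the way. Neurons and radial glia differed at 143995 regions (72.6%). At the 79103 that were higher in neurons, the median position of bIP was 42.8% of the way from radial glia to neurons, with quartiles of 18.9% and 78%. At the 64892 that were lower in neurons it was 52.5%, with quartiles of 35.4% and 70.2%. The 2 bIP libraries did not stand at the same point. Library 1 was at 48.2% and 60.4% of the way in these sets and library 2 at 35% and 47.2%, so library 1 was nearer to neurons in both.

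**Figure D1:**
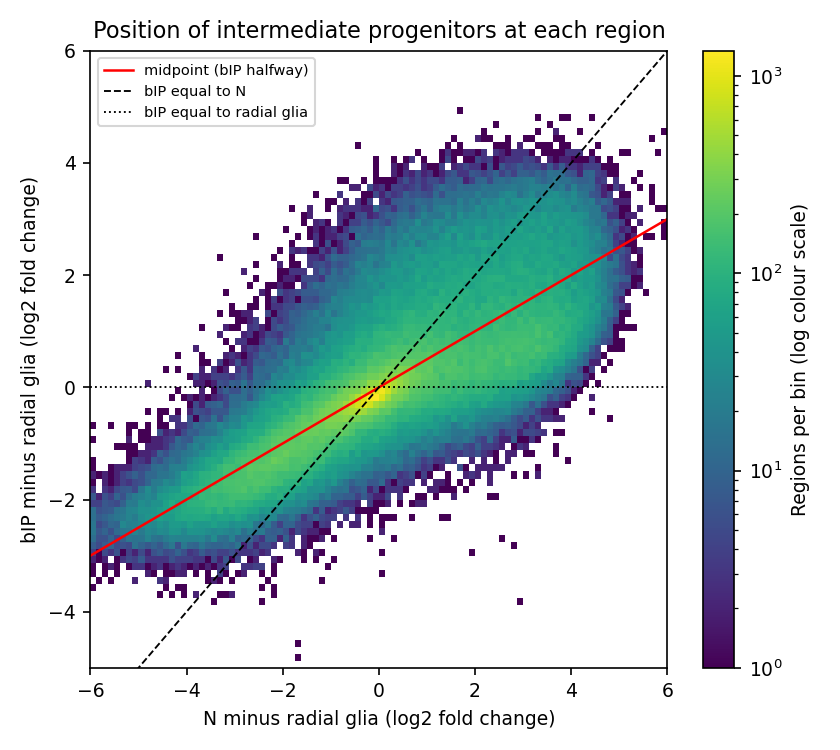
Each small square counts regions by the log2 fold change of N over radial glia (horizontal axis) and of bIP over radial glia (vertical axis), on a logarithmic colour scale, with values beyond 6 drawn at 6. Regions above both the dashed line (bIP equal to N) and the dotted line (bIP equal to radial glia) are more open in bIP than at both ends, and this wing holds 12666 called regions against 1798 in the opposite wing.

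A smaller set of regions lay beyond both ends. Regions higher in bIP than in radial glia and in neurons numbered 12666 (6.39%), and regions lower than both numbered 1798 (0.907%). At gene loci, 569 (4.03%) were higher than both ends and 155 (1.1%) lower. Under the replicate block the last 3 of these counts were 3044, 1018 and 286. Regions of the 2 directions did not enter the test alike. A region open only in bIP could pass the count filter by the bIP libraries alone. Without the filter, 12730 regions were higher and 1676 lower than both ends. The lower regions also had fewer bIP counts, with a median bIP CPM of 1.54 against 4.36 in the higher ones. Both bIP libraries exceeded all 6 others in 12527 of the 12666 regions and in 568 of the 569 loci. They were below all 6 in 1781 of the 1798 regions and in all 155 loci. The features were chosen by these same libraries, so this separation only describes them and is no separate support. The smaller of the differences to the ends had a median of 1.36 on the log2 scale in the higher regions and -1.02 in the lower ones, and of 0.62 and -0.59 at loci. Leaving out bIP 1 left 293 higher and 89 lower loci and 1023 lower regions. Leaving out bIP 2 left 69 lower loci and 749 lower regions, and leaving out N 2 left 359 higher and 100 lower loci. Of the 12666 higher regions, 8885 were among those called without bIP 1 and 9452 among those called without bIP 2, and 8839 among those called without N 2. Of the 1798 lower regions, 731 were called without bIP 1, 609 without bIP 2 and 1085 without N 2.

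The other called regions were off the midpoint but not called beyond both ends. Those higher in N with bIP already above the midpoint, called opening early here, numbered 11825, against 6936 opening late, with bIP still below it. Among regions lower in N, 4454 closed late, with bIP still above the midpoint, and 2199 closed early. At loci the corresponding numbers were 579 opening early, 230 opening late, 240 closing late and 147 closing early. A further 2250 regions and 149 loci fell in no such class. The class names order populations sorted in the same week of culture, and they do not place bIP between the ends. Both bIP libraries were above all 6 others in 3321 regions opening early and 852 closing late. They were below all 6 in 975 regions opening late and 800 closing early. At loci these numbers were 191, 73, 52 and 55.

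Fewer of the regions higher in bIP than at both ends lay close to a gene, while the typical distance was alike. Of these regions 4.74% were within 1 kb of the closest gene, against 11% of all regions tested and 10.7% of the regions lower than both ends. The share was also low in other classes, at 5.2% for opening early, 4.09% for opening late and 6.38% for closing late, but 10.8% for closing early. A low share was thus not particular to the regions higher than both ends. The regions higher than both ends had a median distance of 21817 bases, against 19934 over all regions tested, and a median width of 852 bases against 885. Distances are the submitters', and their genome build and the point of the gene they refer to are not stated. Of 17007 genes with a region at distance 0, 16985 had exactly 1 such region, so the distance runs to a point or short stretch of each gene and not to its whole length. The authors' consensus peak lists, called per population from the same libraries, describe these regions further but are no separate support, since the regions were chosen for being highest or lowest in bIP. Over all regions tested, a bIP peak overlapped 39.9%, an aRG peak 40.2%, a bRG peak 41.7% and an N peak 40.6%. Of the regions higher than both ends, a bIP peak overlapped 76.9%, an aRG peak 24.1%, a bRG peak 23.3% and an N peak 20.9%. For 43.7% of them bIP was the only population with a peak, compared with 4.84% of all regions tested. Of the regions lower than both ends, 35.3% had a bIP peak, not far from the 39.9% of all regions. An aRG peak overlapped 69.4% of the lower regions, a bRG peak 69.2% and an N peak 69.4%.

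The EOMES locus, whose T-box factor defines intermediate progenitors, was more open in bIP than in every other library. Over its 5 regions the values were 129 and 126 in aRG, 104 and 125 in bRG, 213 and 209 in bIP, and 122 and 83.3 in N. No other library overlapped the bIP pair. The deviation from the midpoint was 0.92 ± 0.13 on the log2 scale (edgeR adjusted p = 0.0026), with 0.80 ± 0.14 over radial glia and 1.04 ± 0.16 over N. The region at distance 0 from the gene, chr3:27890461-27894611 on panTro6, had 40.1 and 38.5 in aRG, 29.9 and 34.9 in bRG, 61.2 and 59.1 in bIP, and 37.4 and 25.7 in N, and its deviation was 0.84 ± 0.12. A smaller region 23853 bases away, chr3:27915868-27916995, had 0.744 and 1.18 in aRG, 0.736 and 0.578 in bRG, 3.02 and 4.72 in bIP, and 1.8 and 1.38 in N. It was nearly closed in radial glia, and its deviation was 1.77 ± 0.27. The other 3 regions were not beyond both ends. The region 5965 bases away was closing late, at 6.03 and 6.17 in aRG, 5.12 and 6.46 in bRG, 5.85 and 7.75 in bIP, and 2.86 and 1.89 in N, and those 6957 and 10388 bases away were not called. The call of the EOMES locus was kept in all 18 other settings that were run.

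TBR1, the T-box factor that follows EOMES as neurons form, showed a split between its regions. The locus, with 3 regions, had 82 and 70.1 in aRG, 68 and 67.8 in bRG, 203 and 177 in bIP, and 132 and 121 in N. Neurons lay between radial glia and bIP, and the smaller difference of bIP, that to N, was 0.58 on the log2 scale (adjusted p = 0.0037). With regions within 1 kb only it was 0.235 and not called (adjusted p = 0.19). At distance 0, chr2B:47992072-47994758, the values were 27.1 and 22.2 in aRG, 21.3 and 19.9 in bRG, 56.4 and 46.5 in bIP, and 45.4 and 43.3 in N, so this region was more open in both bIP and N than in radial glia. The neighbouring region chr2B:47995527-47996213, 1403 bases away, had 4.5 and 3.53 in aRG, 3.12 and 3.57 in bRG, 14.4 and 15.7 in bIP, and 3.94 and 3.02 in N. Here neurons were at the radial glia level and bIP alone was high, with a deviation of 2.07 ± 0.20 (adjusted p = 2.8e-05).

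**Figure D2:**
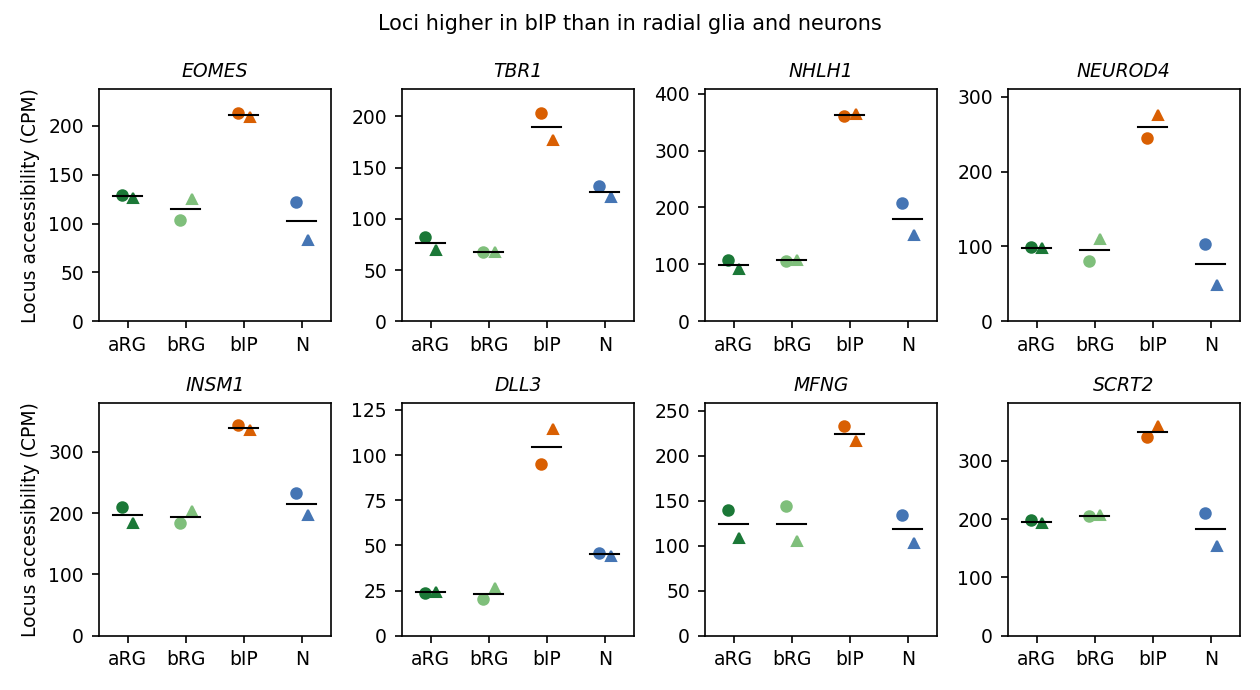
Locus accessibility in CPM (vertical axes from 0) for 8 genes in aRG, bRG, bIP and N, with library 1 as a circle, library 2 as a triangle and the mean of both as a black bar. Both bIP symbols stand above all others in each panel, for example at 213 and 209 CPM for EOMES against at most 129 elsewhere.

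Regions beyond both ends were not limited to the EOMES gene itself. Within 500 kb on either side of the region at distance 0, 21 of 83 regions tested (25.3%) were higher in bIP than at both ends and 0 were lower, with all-region shares of 6.39% and 0.907%. Of the 73 of these regions that lay more than 50 kb away, 18 were higher than both ends. A group of 12, out of 22 whose closest gene was the non-coding RNA gene LINC01967, stood 263 to 435 kb away on the side of the higher coordinates. The region chr3:28258921-28259680, at 366.8 kb, had 0.901 and 0.798 in aRG, 0.5 and 0.646 in bRG, 8.83 and 9.56 in bIP, and 0.466 and 0.314 in N. Every other library was below 1 CPM, and the deviation from the midpoint was 4.12 ± 0.24 (adjusted p = 1.1e-05). This window was looked at because EOMES is the marker of the population, and closeness does not tie these regions to EOMES.

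**Figure D3:**
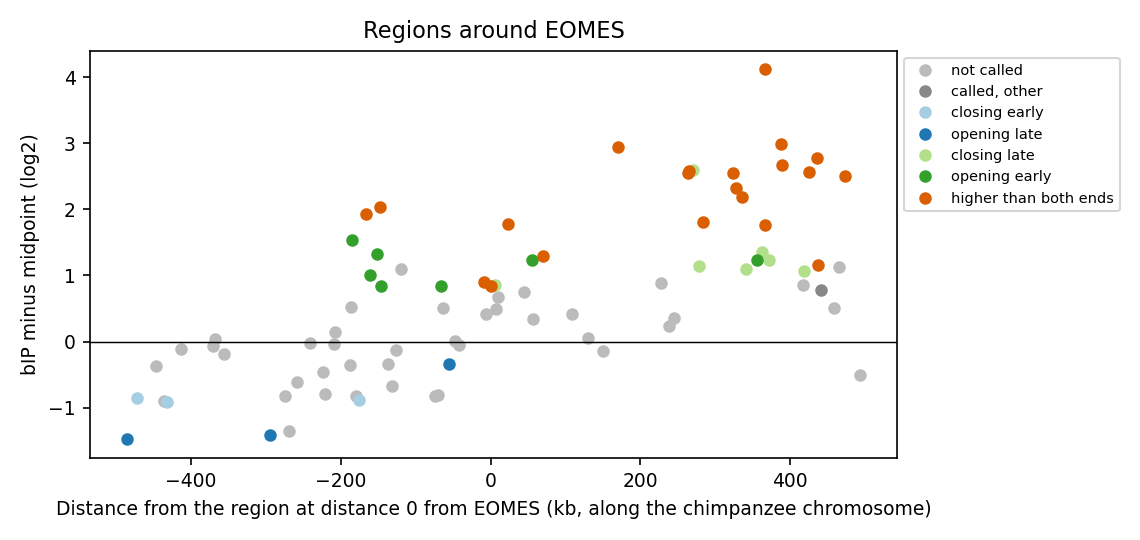
Deviation of bIP from the midpoint (log2, vertical axis) for the 83 regions tested within 500 kb of the region at distance 0 from EOMES (distance in kb, horizontal axis), coloured by class. The orange points are the 21 regions higher than both ends, of which 12 sit between 263 and 435 kb to the right.

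Among 23 gene lists, that of intermediate progenitors had the largest number of loci above the midpoint, and that of proneural factors came next. By share of the loci tested, microglia at 4 of 6 stood above intermediate progenitors at 14 of 25, and Cajal-Retzius cells at 4 of 8 above proneural factors at 11 of 23. Of 25 intermediate progenitor loci, 14 were above the midpoint and 0 below, against 10.6% and 4.06% of all loci, and 12 were higher than both ends. The median of the list was 0.48, against 0.00 over all loci. The shares over all loci are the background for the counts of every list. Lists and members were chosen with earlier results of these data known, so their counts and order are a description and no test. Leaving out each of the 8 libraries in turn kept 10 of the 14 calls throughout. Summed over the list, the bIP libraries had 3968 and 3893 CPM, radial glia 2494 to 2810 and N 2762 and 2307. The members not called included NEUROG2, which starts neurogenesis in radial glia. It had a single region with 6.55 and 9.18 CPM in bIP, 11.1 to 23 in radial glia and 4.22 and 2.68 in N, highest in radial glia, and its deviation was 0.03 ± 0.35.

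NHLH1, a basic helix-loop-helix factor of newborn neurons, had CPM values of 107 and 91.8 in aRG, 107 and 108 in bRG, 361 and 364 in bIP, and 207 and 152 in N. Neurons were intermediate, and the deviation was 1.41 ± 0.11 (adjusted p = 0.00027). One of its regions, chr1:135373297-135373837, had between 1.16 and 2.08 CPM in radial glia, 14.4 and 16.4 in bIP, and 2.02 and 2 in N. SLC17A6, the vesicular glutamate transporter VGLUT2, had 18.5 and 15.7 in aRG, 18.8 and 20 in bRG, 132 and 109 in bIP, and 85.6 and 68.2 in N. Its largest change was the opening from radial glia, 2.73 ± 0.12. The smaller excess over N, 0.65, lost its call without bIP 1 (0.50, adjusted p = 0.07) and without N 2 (0.49, adjusted p = 0.065). ELAVL4, a neuronal RNA-binding protein, had 149 and 142 in aRG, 145 and 154 in bRG, 269 and 253 in bIP, and 179 and 173 in N, and its deviation of 0.69 ± 0.06 was called in all settings.

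The proneural list, which shares members with the former, had 11 of 23 loci higher and 0 lower, with 7 higher than both ends and a median of 0.31. Its summed values were 3839 and 3788 CPM in bIP, 2562 to 2882 in radial glia, and 2941 and 2506 in N. The replicate block called 1 member lower, as did the fit without N 1. NEUROD4, a proneural factor of cells leaving the cycle, had 99.3 and 97.4 in aRG, 80.9 and 109.5 in bRG, 244 and 276 in bIP, and 104 and 49.2 in N. The 12 regions of this locus did not move alike. The region chr12:34027582-34028368 had 2.47 and 2.81 in aRG, 1.71 and 2.55 in bRG, 15 and 18.5 in bIP, and 5.22 and 1.57 in N, the largest deviation there at 2.55 ± 0.32. INSM1, a zinc-finger factor that promotes intermediate progenitor formation in the mouse cortex, had CPM values of 209 and 184 in aRG, 183 and 202 in bRG, 343 and 336 in bIP, and 232 and 198 in N. Its region at distance 0 was only opening early, and within 10 kb or 1 kb of the gene the locus was no longer higher than both ends (smaller differences of 0.18 and 0.12). NEUROD2, which acts in postmitotic neurons, was of another kind. It had 54.1 and 45.6 in aRG, 55.6 and 52.7 in bRG, 326 and 274 in bIP, and 382 and 378 in N, so bIP was above the midpoint by 1.09 ± 0.08 but below neurons.

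In the Notch pathway the called loci were those of ligands and modulators, and no receptor locus was called. Of 19 loci tested, 5 were higher than the midpoint and 0 lower, and all 5 were higher than both ends. The median of the list was 0.11. DLL3, an atypical ligand that inhibits signalling within its own cell, had 23.6 and 24.2 in aRG, 20.1 and 26.2 in bRG, 94.9 and 114 in bIP, and 45.9 and 44.3 in N. No bIP value was near those of other libraries. The deviation was 1.69 ± 0.11 (adjusted p = 0.00016), and the region at distance 0 had 9.32 and 8.78 in aRG, 7.5 and 9.15 in bRG, 33.6 and 40.2 in bIP, and 16.8 and 15.3 in N. MFNG, a fringe enzyme that sugar-modifies Notch, had 139.7 and 108 in aRG, 144 and 105 in bRG, 233 and 217 in bIP, and 134 and 103 in N. HES6, which opposes HES1, had 141 and 127 in aRG, 129 and 124 in bRG, 178 and 176 in bIP, and 116 and 86.5 in N. Its excess over radial glia, the smaller difference at 0.44, was not called without bIP 1 (0.43, adjusted p = 0.073).

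NUMBL, an adaptor that antagonises Notch, had 294 and 296 CPM in bIP, 165 to 174 in radial glia and 240.3 and 228 in N. Its smaller difference of 0.33 lost its call under loess scaling (0.18, adjusted p = 0.067). DLL4, a ligand best known from blood vessels, had 199 and 166 CPM in bIP, 86.4 to 95.7 in radial glia and 124 and 72.1 in N, and its deviation of 0.95 ± 0.17 was lost without bIP 1 (0.81, adjusted p = 0.076). The receptors NOTCH1 and NOTCH3 were not called, at 0.13 ± 0.09 and -0.17 ± 0.10, nor was the target HES1 at 0.08 ± 0.12. HES5, another target, had a deviation of 0.36 ± 0.27 (adjusted p = 0.46). DLL1 and NOTCH2 had no locus tested. Whether ligand and receptor loci differ as groups was not tested. Summed over the list, bIP had 2334 and 2359 CPM, just above the 2150 to 2309 of radial glia, and N had 1790 and 1616. Leaving out bIP 2 called 1 member lower.

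Genes of the cell cycle were close to the middle. Of 24 loci of cycling and mitosis, 3 were higher and 0 lower, near the shares over all loci, and the median was -0.06. MKI67, the proliferation marker Ki-67, was at -0.14 ± 0.10. MCM5, part of the replicative helicase, had 104 and 102 CPM in bIP, 80.6 to 89.3 in radial glia and 73.7 and 72.2 in N, yet within 10 kb its deviation was -0.09. E2F1, a factor of the entry into S phase, had 201 and 193 CPM in bIP, 159 to 178 in radial glia and 159.5 and 144 in N, and without bIP 1 its deviation was 0.28 (adjusted p = 0.12). CCNE2, cyclin E2, had 152 and 155 CPM in bIP, 129 to 154 in radial glia and 98 and 97.8 in N, and was not called without bIP 1 (0.39, adjusted p = 0.069) or bIP 2 (0.37, adjusted p = 0.068). Without bIP 1 a single call was left, and the replicate block called 1 locus lower.

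Of 15 loci of cell cycle exit, 2 were higher and 0 lower, close to the 10.6% and 4.06% of all loci, and the replicate block gave 4 higher. GADD45G, a stress-response gene active in newborn neurons, had 194 and 171 in aRG, 185 and 171 in bRG, 245 and 246 in bIP, and 176 and 181 in N, with bIP above all others and a deviation of 0.45 ± 0.07 (adjusted p = 0.0033). CCNG2, an unusual cyclin of resting cells, had a deviation of 0.29 ± 0.06 that was lost without bIP 2 (0.22, adjusted p = 0.11) and under loess scaling (0.20, adjusted p = 0.054). In the list of T-box and SOXC factors, 3 of 7 were higher and 0 lower. Beside EOMES and TBR1 this was SOX4, which promotes neuronal differentiation, at 296 and 295 CPM in bIP, 239 to 259.8 in radial glia and 259 and 249 in N. Its deviation of 0.23 ± 0.06 lost its call in 7 of the 8 leave-out fits, those without each library except N 1.

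Genes of detachment and multipolar migration, by which progenitors and young neurons leave the ventricular zone, were above the midpoint at 9 of 25 loci and below it at 1, against 10.6% and 4.06% of all loci, where calls above also outnumbered calls below. The list's median was 0.19, and 5 loci were higher than both ends. The count of 9 depended on single libraries. It was 5 without aRG 2 and without bRG 2, 2 without bIP 1 and 4 without bIP 2. SCRT2, a Scratch-family repressor linked to the onset of radial migration in the mouse, had 198 and 194 in aRG, 205 and 206 in bRG, 341 and 359 in bIP, and 211 and 155 in N. Both bIP libraries were far above the rest, the deviation was 0.87 ± 0.10 (adjusted p = 0.0012), and no setting ended its call. LRP8, a Reelin receptor, had 132 and 121 CPM in bIP, 41.1 to 63.5 in radial glia and 85.7 and 52.6 in N. Its excess over both ends was not called without bIP 1 (0.79, adjusted p = 0.13), bIP 2 (0.93, adjusted p = 0.094) or N 2 (0.56, adjusted p = 0.19). RND3, a small GTPase that loosens actin fibres, had 258 and 238 CPM in bIP, 172 to 207 in radial glia and 188 and 157 in N, and was not called at the midpoint without bIP 1 (0.41, adjusted p = 0.11).

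DAB1, the adaptor that carries the Reelin signal inside migrating neurons, went the other way. Its locus had 194 and 171 in aRG, 197 and 180.4 in bRG, 148 and 123 in bIP, and 238 and 247 in N and was lowest in bIP, with a deviation of -0.65 ± 0.09 (adjusted p = 0.0026). Within 1 kb of the gene it was -0.23 and not called (adjusted p = 0.2). Its region at distance 0 was closing early, whereas the region chr1:56293742-56294209, 39393 bases away, had 2.39 and 1.81 in aRG, 2.38 and 1.91 in bRG, 1.05 and 0.845 in bIP, and 3.38 and 3.73 in N. It was itself lower than both ends, with a deviation of -1.53 ± 0.29.

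Most radial glia loci were not called against the midpoint. Of 20 shared radial glia loci, 2 were above and 1 below the midpoint, close to the shares over all loci, with a median of 0.06. Summed values were 3967 to 4169 CPM in radial glia, 2633 and 2938 in bIP, and 1926 and 1775 in N. SOX2, which keeps neural stem cells undifferentiated, had 277 and 238 in aRG, 255 and 246 in bRG, 129 and 147 in bIP, and 56 and 47.4 in N, with a deviation of 0.27 ± 0.09 (adjusted p = 0.089). Under the replicate block it was called (0.27, adjusted p = 0.044), as without N 1 (0.34, adjusted p = 0.042). PAX6, a paired-box factor of dorsal radial glia, had 82.5 and 90.4 CPM in bIP, 109.7 to 133 in radial glia and 53.3 and 48.9 in N, and a deviation of 0.11 ± 0.09. MSI1, the RNA-binding protein Musashi, had 146 and 147 in aRG, 145 and 142 in bRG, 144 and 148 in bIP, and 70.1 and 54.1 in N. It was as open in bIP as in radial glia and low in neurons, and its deviation of 0.62 ± 0.09 held in all settings. SOX9 and PTPRZ1 were called at 0.21 ± 0.06 and -0.36 ± 0.10. SOX9 lost its call in 7 leave-out fits, all but the one without N 1, and so did PTPRZ1. The block gave 4 higher and 2 lower members.

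For basal radial glia genes, 3 of 18 were higher and 4 lower, with a median of 0.04, and few of these calls were stable. Leaving out any library but N 1 left 0 or 1 higher. Lower loci numbered 1 without bIP 1, and 2 without aRG 2, bRG 1, bRG 2, bIP 2 or N 2. HOPX, a homeodomain-only protein known as a basal radial glia marker, had 143 and 140.3 CPM in bIP, 208 to 238 in radial glia and 63.3 and 51.9 in N, and a deviation of 0.33 ± 0.09 that was lost in 6 of the 8 leave-out fits. ANXA1, annexin A1, had 37.8 and 38.9 in aRG, 37 and 42.9 in bRG, 25.9 and 25 in bIP, and 39.3 and 59.9 in N. It was lowest in bIP, at -0.79 ± 0.17 from the midpoint, and lost its call without bIP 1 (-0.82, adjusted p = 0.093) and without bIP 2 (-0.76, adjusted p = 0.092).

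The pan-neuronal loci that were called were mostly above the midpoint without exceeding neurons. Of 24 pan-neuronal loci, 8 were above and 1 below the midpoint, with a median of 0.11, and 2 were higher than both ends. Leaving out each library in turn kept 7 of the 8. MYT1L, a repressor of non-neuronal genes, had 21.7 and 27.8 in aRG, 26.2 and 31 in bRG, 149 and 139.6 in bIP, and 148 and 148 in N. The bIP libraries differed from neurons by -0.04 ± 0.11 and from radial glia by 2.44 ± 0.10, with a deviation of 1.21 ± 0.09 (adjusted p = 0.00027). SRRM4, a splicing factor of neuronal microexons, had 31.9 and 35.6 in aRG, 37 and 35.7 in bRG, 186 and 153 in bIP, and 189 and 158 in N and the same form. RBFOX3, the antigen NeuN, had 109.5 and 109.8 in aRG, 128 and 127 in bRG, 306 and 281 in bIP, and 251 and 193 in N. Its excess over neurons, 0.40, was lost in 6 leave-out fits, with 0.22 (adjusted p = 0.12) without N 2, and under loess scaling (0.29, adjusted p = 0.072).

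RBFOX1, a splicing factor of mature neurons, was the pan-neuronal locus below the midpoint. It had 2.28 and 2.18 in aRG, 3.3 and 2.59 in bRG, 2.44 and 2.27 in bIP, and 10.9 and 17.9 in N, still at the radial glia level in bIP, but was not called without bIP 1 or without bIP 2. The replicate block gave 2 lower pan-neuronal loci. In the lists of layers, 3 of 16 deep-layer loci were higher and 1 lower, and 3 of 15 upper-layer loci were higher and 0 lower. With bIP 1 left out, a single deep-layer locus was higher, and the block gave 5. BCL11B, a zinc-finger factor of deep-layer neurons whose name the neuron label carries, had 155 and 138 in aRG, 153 and 135 in bRG, 191 and 178 in bIP, and 132 and 114 in N. The locus was highest in bIP and lowest in N, and its call at 0.47 ± 0.08 was lost without bIP 1 (0.41, adjusted p = 0.071). LDB2, a LIM-domain binding cofactor, had 46 and 46.7 CPM in bIP, 56.4 to 67 in radial glia and 80.9 and 101 in N and was lower than both ends, but without bIP 1 its smaller difference was not called (-0.40, adjusted p = 0.12).

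Of 27 loci of synapses and channels, 6 were higher and 3 lower than the midpoint, against 10.6% and 4.06% of all loci, with a median of 0.01. The lower count was 1 without aRG 1, bIP 1 or bIP 2, and 5 under the replicate block. GRIN2A, an NMDA receptor subunit of mature synapses, had 67.6 and 82.1 in aRG, 72.6 and 88.9 in bRG, 49.7 and 54.1 in bIP, and 83.3 and 92.8 in N and was lowest in bIP. Its deviation of -0.67 ± 0.11 was lost without bIP 1 (-0.62, adjusted p = 0.063). The region at distance 0 had this pattern, with CPM values of 25.3 and 30.9 in aRG, 26.1 and 29.6 in bRG, 16.2 and 18.5 in bIP, and 27.6 and 27.5 in N. GRIK2, a kainate receptor subunit, was higher than both ends at low levels, 4.79 and 6.51 CPM in bIP, 1.25 to 2.75 in radial glia and 1.51 and 1.78 in N.

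Of 24 axon guidance loci, 5 were higher and 1 lower, with a median of 0.04 and 4 higher than both ends. The block gave 8 and 4, and 3 were higher without bIP 2. The lower count was 0 without aRG 1 and 2 without N 1. UNC5A, a netrin receptor with 18 regions, had 260.3 and 237 in aRG, 264 and 256 in bRG, 554 and 460.0 in bIP, and 411 and 336 in N. Its excess over N was lost without bIP 1 (0.30, adjusted p = 0.14), without N 2 (0.30, adjusted p = 0.15) and under loess scaling (0.18, adjusted p = 0.23). EPHA4, an ephrin receptor, had 156 and 156 in aRG, 140.5 and 157 in bRG, 210.1 and 223 in bIP, and 126 and 90.3 in N, with a deviation of 0.75 ± 0.11 (adjusted p = 0.0033), while its excess over both ends was not called without bIP 2 (0.47, adjusted p = 0.058). Within 1 kb the deviation was 0.157 (adjusted p = 0.78).

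**Figure D4:**
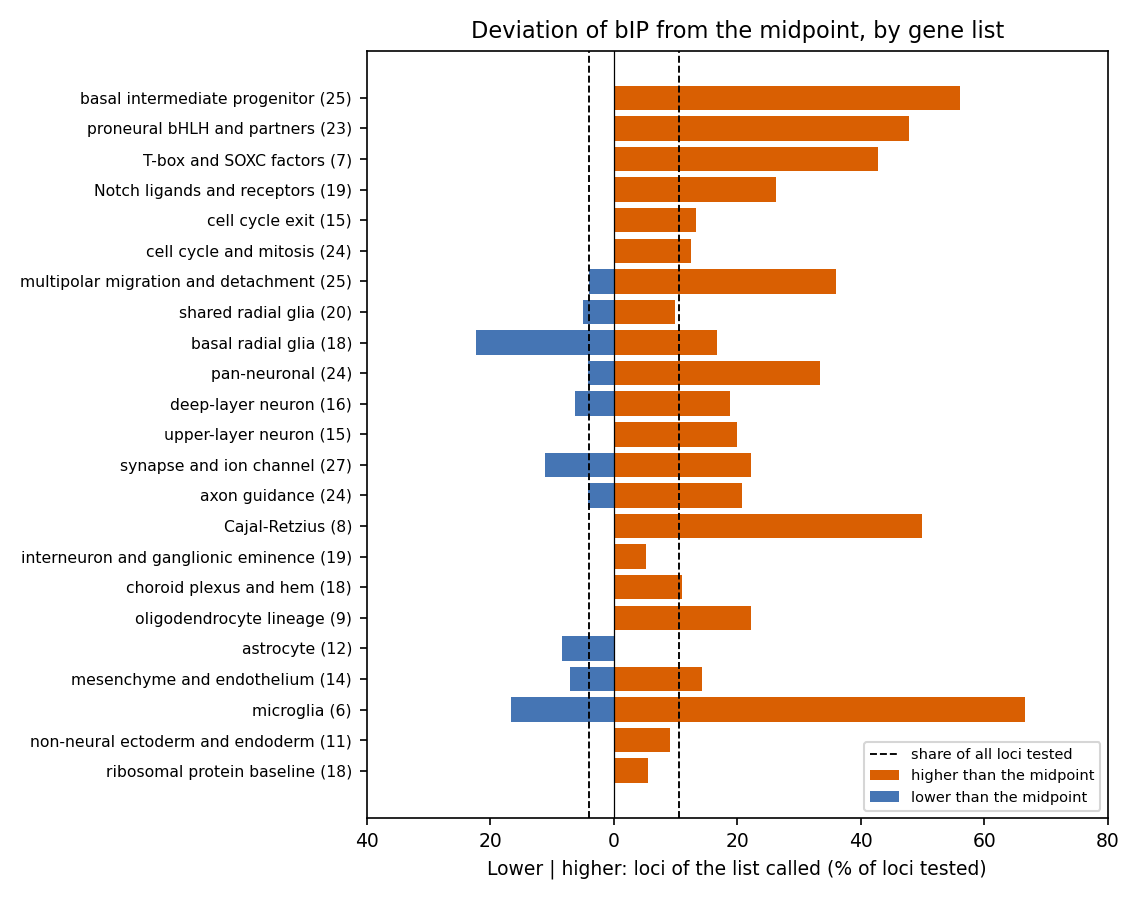
For each of 23 gene lists (number of loci tested in brackets), bars give the share of loci above the midpoint (orange, to the right) and below it (blue, to the left), in percent of loci tested. Dashed lines mark the shares over all 14117 loci, 10.6% and 4.06%. The intermediate progenitor list has 14 of 25 loci above the midpoint and the ribosomal protein list 1 of 18. Lists were chosen with earlier results of these data known.

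Markers of other cells that the sort could hold were examined in the same way. Of 8 loci of Cajal-Retzius cells, early marginal-zone neurons, 4 were higher and 0 lower, with 2 without bIP 1 and 7 under the replicate block. Their summed values were 1512 and 1233 CPM in bIP, 530.4 to 596 in radial glia, and 1246 and 908 in N. EBF2, which is also a factor of early neuronal differentiation, had 126 and 121 in aRG, 115 and 133 in bRG, 392 and 394 in bIP, and 227 and 229.8 in N. It was above every other library and held in all settings, at 1.22 ± 0.06. NHLH2 and CACNA2D2 were opening early, but CACNA2D2 was not called without bIP 1 (0.53, adjusted p = 0.2) or within 10 kb (0.155, adjusted p = 0.6) or 1 kb (0.163, adjusted p = 0.65). EBF3 was called at 0.66 ± 0.13, but not without bIP 1 (0.59, adjusted p = 0.089). The defining markers RELN and TP73 were not called, at 72.9 and 70.9 CPM in bIP, 47.1 to 61 in radial glia and 88.5 and 66.6 in N for RELN and 36.2 and 26.4 CPM in bIP, 14.4 to 23.3 in radial glia and 30.6 and 19.1 in N for TP73. What part such cells have in the results was not tested.

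Of 6 microglia loci tested, 4 were higher and 1 lower, with 2 higher without bIP 1. Their sum was 178 and 155 CPM in bIP, 158 to 204 in radial glia and 149 and 130.4 in N. TREM2, a microglial receptor, had a single region with 1.4 and 1.61 in aRG, 1.61 and 1.42 in bRG, 24.4 and 15 in bIP, and 12.1 and 8.92 in N. P2RY12, the defining receptor of resting microglia, was lower, at 40.1 and 39.3 CPM in bIP, 90.04 to 135 in radial glia and 61.4 and 56.1 in N. ERG, a factor of endothelium, had 24.8 and 19.9 in aRG, 25.1 and 20.9 in bRG, 80.5 and 73.8 in bIP, and 22.3 and 16.1 in N, more than in any other population. Within 1 kb its deviation was 0.519 and not called (adjusted p = 0.3). KDR, the main endothelial growth factor receptor, had 15.3 and 14.4 CPM in bIP, 31 to 54.8 in radial glia and 19.4 and 17.4 in N. In the list of mesenchyme and endothelium, 2 of 14 were higher and 1 lower, with 4 and 2 under the block, 4 higher without bIP 2, and 0 lower without bIP 1 or bIP 2. Its summed values were 561 and 487 CPM in bIP, 452 to 558 in radial glia, and 443 and 378 in N.

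The remaining lists had few called loci. Interneuron genes had 1 of 19 higher, choroid plexus genes 2 of 18, oligodendrocyte lineage genes 2 of 9, genes of non-neural ectoderm and endoderm 1 of 11, and ribosomal protein genes 1 of 18, with 0 lower in each. Astrocyte genes had 0 of 12 higher and 1 lower. The replicate block raised the interneuron count to 6, the oligodendrocyte count to 4, the ectoderm and endoderm counts to 4 and 2, and the lower astrocyte count to 4. Interneuron loci numbered 6 higher and oligodendrocyte loci 4 without N 1. Oligodendrocyte loci numbered 0 without bIP 2, and choroid plexus loci 0 without aRG 1 or aRG 2. Without bIP 1, 0 loci of the interneuron, choroid plexus, oligodendrocyte, ectoderm and endoderm, and ribosomal lists were higher. Summed CPM in bIP lay below the radial glia range for the interneuron, choroid plexus and astrocyte lists, at 1512 and 1473 against 1686 to 1944, at 907 and 834 against 1080 to 1176, and at 701 and 722 against 1180 to 1279. The part of such cells in these counts was not tested.

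The loci that exceeded both ends by most were small ones that no list held. TXNDC2, a thioredoxin-domain protein known from testis, led with 3 regions and 5.09 and 3.42 in aRG, 3.86 and 4.6 in bRG, 48 and 36.9 in bIP, and 6.69 and 3.67 in N. The smaller of its differences was 3.02 on the log2 scale (adjusted p = 0.00072). RNF187, a ubiquitin ligase gene, had 1 region with 2.54 and 0.95 in aRG, 2.17 and 1.51 in bRG, 25.9 and 21.6 in bIP, and 4.3 and 1.98 in N, and CPVL, a carboxypeptidase-like gene, 1 with 4.47 and 4.18 in aRG, 3.09 and 6.44 in bRG, 29.6 and 32.1 in bIP, and 3.58 and 3.07 in N. ANO1, a calcium-activated chloride channel, had 5.79 and 5.51 in aRG, 5.05 and 5.69 in bRG, 31 and 30.5 in bIP, and 6.69 and 4.26 in N over 2 regions. In these 4 loci every library outside bIP had at most 6.69 CPM. The others among the top 12 were DOLPP1, SMIM33, PPP1R2B, ZP1, ENTHD1, NAIP, ZG16 and OXER1, with smaller differences of 2.39 to 2.81, or 2.95 and 2.96 for SMIM33 and DOLPP1. NAIP and PPP1R2B have near-identical copies and are uncertain. The call of each of the 12 was kept in all settings in which the locus could be computed, and 9 of the 12 rest on a single region.

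Among single regions, the leading 6 had LINC01967, TMTC2 or a gene named only by a clone identifier as their closest gene. Raw counts show how closed they were outside bIP. The region chr10:83579877-83580238 had 54 and 82 counts in bIP and 2 to 5 in each other library, with a smaller difference of 4.32 (adjusted p = 4.1e-05). The region chr12:80374845-80375731, 89486 bases from TMTC2, had 115 and 235 counts in bIP and 7 to 16 elsewhere. The region chr9:23667762-23668884 had 435 and 276 against 12 to 41. The region near LINC01967 described with EOMES had 243 and 249 against 8 to 23. The calls of all 6 were kept in all settings.

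Loci lower in bIP than at both ends were fewer and had another make-up. NREP, neuronal regeneration related protein, had 63 and 60.5 in aRG, 55.1 and 56.9 in bRG, 15.8 and 20.8 in bIP, and 37.1 and 50.9 in N, and the smaller of its differences was -1.26 (adjusted p = 0.0019). LINGO2, a neuronal leucine-rich repeat protein, had 36.6 and 45.5 in aRG, 33.7 and 45.4 in bRG, 16.8 and 15.6 in bIP, and 42.2 and 61.4 in N. BBOX1, a carnitine-synthesis enzyme, had 26.5 and 33.8 in aRG, 28.6 and 30.9 in bRG, 11.8 and 11.8 in bIP, and 29 and 34.7 in N. In each, bIP was below every other library. IL6, an interleukin gene, had 27.9 and 30.2 in aRG, 27.4 and 25.5 in bRG, 11.7 and 10.9 in bIP, and 43.5 and 53.8 in N over 7 regions, of which 0 were called lower than both ends. The region chr7:22853530-22854562 had 1.61 and 1.93 in aRG, 1.71 and 1.29 in bRG, 0.472 and 0.614 in bIP, and 0.869 and 1.02 in N, and was closing early. The region chr7:22859032-22859452 had 0.392 and 0.294 in aRG, 0.471 and 0.476 in bRG, 0.799 and 0.345 in bIP, and 4.69 and 3.81 in N, and was opening late.

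Of the 155 lower loci, 64 (41.3%) had at least 1 region that was itself lower than both ends, against 2.29% of all loci tested. A locus sums its own regions, so its call and theirs are not independent. Of the same 155 loci, 128 (82.6%) had both a region higher in N than in radial glia and a region lower in N, against 29.2% of all loci tested. The lower loci had a median of 5 regions and all loci one of 2, and of the higher loci, with a median of 4 regions, 52.9% had both kinds. In 88 of the 155 both kinds were present and no region was lower than both ends. The same held for 300 of the 569 higher loci and 3960 of all 14117 loci. Among the 569 higher loci, by comparison, 498 (87.5%) contained a region that was itself higher than both ends, against 13.4% of all loci tested. The other loci among the 12 with the largest differences were KIAA1549L, MTRNR2L8, TAFA5, ADGRF3, BCL2L15, MRTFA, OSTN and MEI4. MTRNR2L8 has near-identical copies and is uncertain. TAFA5, ADGRF3, MRTFA and OSTN lost their calls without bIP 1 and without bIP 2, KIAA1549L and MEI4 without bIP 1, and BCL2L15 without bIP 2 and 4 other single libraries. ADGRF3, KIAA1549L, MRTFA and OSTN also lost theirs without N 2. MRTFA further lost its call without each of the aRG and bRG libraries and under loess scaling. TAFA5 did so without aRG 1, without bRG 2 and with DESeq2's Wald test, and OSTN without aRG 1. With regions within 10 kb only, BBOX1, IL6, MEI4, MTRNR2L8 and LINGO2 were no longer below both ends, and NREP was not called (-0.17, adjusted p = 0.85).

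**Figure D5:**
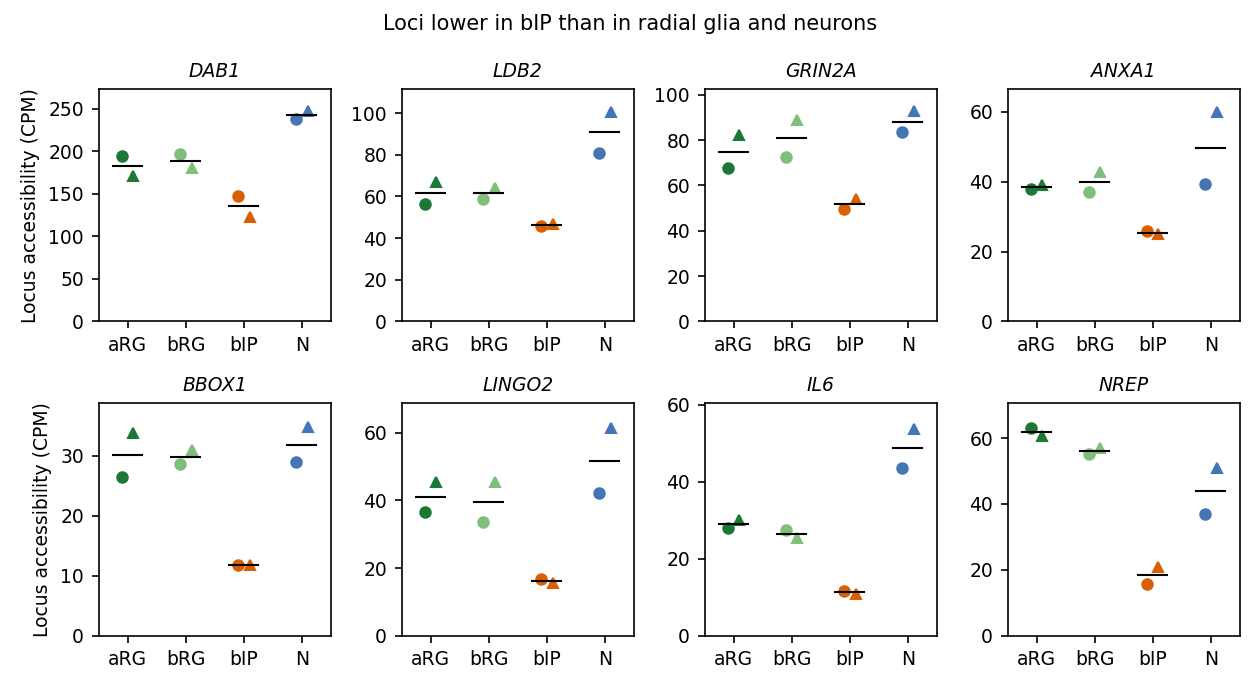
Locus accessibility in CPM (vertical axes from 0) for 8 loci lower in bIP than at both ends, with library 1 as a circle, library 2 as a triangle and the mean of both as a black bar. Both bIP symbols are the lowest of each panel, for example 11.7 and 10.9 CPM for IL6 against 25.5 or more elsewhere. DAB1, LDB2, GRIN2A and ANXA1 come from the gene lists, and BBOX1, LINGO2, IL6 and NREP from the 12 largest differences.

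Single regions lower than both ends had few counts. The leading region, chr7:133428928-133429277, had 0 in both bIP libraries, 12 to 16 in radial glia, and 2 and 7 in N. A region 35886 bases from QKI, chr6:160946937-160947757, had 1 and 2 counts in bIP, 9 to 20 in radial glia, and 12 and 16 in N, and its call was kept in all settings. The leading region's call was lost without bIP 1, bIP 2 or N 2. No fold is given for it, since a fitted value against 0 depends on the prior count.

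Loci off the midpoint that were not called beyond both ends were sorted by the direction of N against radial glia. Opening early was led by TPCN1, an endolysosomal cation channel, with 3.77 and 4.65 in aRG, 4.14 and 2.85 in bRG, 77.3 and 39.5 in bIP, and 39.6 and 14.6 in N and a deviation of 2.51 ± 0.36. SLC5A10, CABP2 and LY6G6D followed, at 2.44 ± 0.34, 2.48 ± 0.55 and 2.21 ± 0.27. In these loci and TPCN1 mean CPM was higher in bIP than in N, but the excess over N was not called. The means were 58.4 and 27.1 for TPCN1, and for SLC5A10 both bIP libraries were above all 6 others. In all 4, library 1 of bIP and of N was above library 2, and CABP2 lost its call without bIP 1 (1.37, adjusted p = 0.27). Opening late was led by KRT28, a keratin gene, with 0.79 and 1.14 in aRG, 1.54 and 1.34 in bRG, 0.88 and 0.691 in bIP, and 6.69 and 12 in N. It was not called without bIP 1 (-2.25, adjusted p = 0.068) or bIP 2 (-1.90, adjusted p = 0.077), nor were SPRR1B, HEPHL1 and DLC1.

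Closing early was led by CATSPERB, DIO2, A1CF and CRYGB. For CATSPERB, A1CF and CRYGB both bIP libraries were below all 6 others, but the difference from N was not called. A1CF, an RNA-editing cofactor, had 43.2 and 43.9 in aRG, 42.6 and 42 in bRG, 7.82 and 10.9 in bIP, and 11.9 and 13.4 in N and was called in all leave-out fits, while the other 3 were not called without bIP 1 or without bIP 2. Closing late was led by ADAM18, a testis metalloprotease-like gene, with 13 and 17.9 in aRG, 11.4 and 22 in bRG, 24.4 and 28.5 in bIP, and 2.55 and 1.29 in N. Both bIP libraries exceeded all others, but the excess over radial glia was not called (adjusted p = 0.088). LGALS12 had 1.42 ± 0.22 and kept its call in all settings. ACP5 was not called without bIP 1 (1.25, adjusted p = 0.1), nor STX8 without bIP 2 (1.39, adjusted p = 0.052).

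Further calls at loci ended when fewer regions were summed. Within 10 kb the deviation was not called for CCNG2, CCNE2, RND3, A1CF, P2RY12, RBFOX1 and DLC1. RBFOX1 was at -0.11 (adjusted p = 0.94), P2RY12 at -0.37 (adjusted p = 0.35) and CCNE2 at 0.14 (adjusted p = 0.3). Within 1 kb it was not called for SOX4, E2F1, LDB2, EBF3, KDR and HEPHL1. The excess over both ends was not called within 1 kb for NHLH1 (0.446, adjusted p = 0.14), HES6 (0.219, adjusted p = 0.12), GADD45G (0.193, adjusted p = 0.057) and RBFOX3 (0.392, adjusted p = 0.41), nor within 10 kb for LRP8 (0.627, adjusted p = 0.077). Among the lower loci, ANXA1, LDB2, KIAA1549L, TAFA5 and ADGRF3 were not called lower than both ends within 10 kb.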

How the data were processed

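Open chromatin was measured by bulk ATAC-seq in 8 libraries, 2 for each of the 4 populations aRG, bRG, bIP and N, grouped by their labels. The submitters' processing notes name bcl2fastq 2.20.0, MACS2, panTro6 and hg38; no aligner is named in those sources. The authors deposited whole-number counts per consensus region and library, which were used as deposited. They also deposited peak lists with a score, a fold enrichment (ratio) and −log10 p and q per peak; only the intervals of these lists were used here, for overlaps found with bedtools 2.31.1. How replicates were combined into consensus peaks is not stated.

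From the 218080 regions, 6725 without a chimpanzee identifier (total count 0) and 7 repeats were left out. Counts were filtered with filterByExpr (13121 regions left out), scaled by TMM and tested with edgeR 4.0.16 (limma 3.58.1, R 4.3.3) in a single quasi-likelihood fit of the 8 libraries. The contrasts were bIP minus the midpoint of the radial glia mean and N, bIP minus the radial glia mean, bIP minus N, and N minus the radial glia mean. A feature was beyond both ends where bIP differed from radial glia and from N in the same direction, each at an adjusted p under 0.05. Gene loci sum the regions whose closest gene, at most 50 kb away, is protein-coding. Coding status and older symbols came from a RefSeq gene table of NHGRI_mPanTro3-v2.0, used for names only. Of 41376 closest genes named, 14256 matched a protein-coding gene, 50 of them by an older symbol.

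Library totals were 24913928 to 34845193 counts, and low-count regions are the least precise. The deviations of same-numbered libraries from their population means correlated in all 6 pairs of populations, by 0.116 to 0.313 over regions and 0.217 to 0.515 over loci. A fit with the number as a block was therefore run as an alternative. The main fit, which gave the main counts and calls, had population only and did not pair the libraries. Further alternatives were DESeq2 1.42.0 (size factors and Wald test), loess scaling, no filter, radial glia as aRG or bRG alone, a 1.2-fold minimum change, windows of 10 kb and 1 kb, a linear midpoint and each library left out.

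Named loci were the 12 largest smaller-of-both differences in each direction with both bIP libraries beyond the other 6, the 4 largest deviations in each other class, up to 4 members of each list with the smallest p, and 7 reference markers. Regions followed the same rule with 6 in each direction. Other list members, and single regions within loci, were chosen after their values were seen. Some list members that the rule names are not reported here. The members and lists were chosen with earlier results of these data known.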

Additional observations from a re-analysis of the deposited data

How the results depend on the processing

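Regions above the midpoint and above both ends stayed within 1.5 times their counts in every setting, and other scalings moved the median deviation by at most 0.033. Leaving out single libraries gave 20555 to 33870 regions higher and 3341 to 18128 lower than the midpoint, 9226 to 13843 higher and 749 to 1968 lower than both ends, 674 to 1890 loci higher and 224 to 787 lower than the midpoint, and 293 to 744 loci higher and 69 to 190 lower than both ends. The replicate block, in which libraries are paired by number, gave 20637 regions lower than the midpoint and 3044 lower than both ends, and 2372, 1191, 1018 and 286 loci (higher and lower than the midpoint, then than both ends). DESeq2's Wald test gave 7120 and 1070 lower regions. A 1.2-fold minimum gave 7586 regions lower than the midpoint and 803, 191, 268 and 60 loci. The 10 kb window gave 227 and 57 lower loci, and the 1 kb window 422, 49, 156 and 20, from fewer regions. Of 186 named results, 66 lost no call in any setting, among them PAX6 and SOX2, which were not called in the main fit. For loci beyond both ends, the next values are for a difference to an end that changed sign, while the other could keep its sign. Where both changed, the smaller is given. In the 10 kb and 1 kb windows the difference so chosen turned to 1.503 and 1.49 for MTRNR2L8, 0.85 and 0.84 for BBOX1, 0.81 and 0.83 for LINGO2, -0.063 and -0.077 for MCM5, and -0.15 and -0.13 for SEMA6D. At 10 kb it turned to 0.86 for IL6, 1.80 for MEI4, -0.13 for E2F1 and -0.17 for C1QB (microglial complement), and at 1 kb to -0.18 for UNC5A. The deviation turned at 10 kb and 1 kb to -0.092 and -0.085 for MCM5, 0.18 and 0.15 for PTPRZ1, -0.054 and -0.061 for CORO1C, and -0.321 and -0.315 for CSF1R. It turned at 10 kb to -0.00 for SEMA6D, and at 1 kb to -0.10 for HOPX, -0.038 for CUX1 and -0.034 for RPS14. NEUROG2, never called, turned to -0.008 against bRG alone, and was at -0.237 to 0.244 with single libraries left out. The cause of these changes was not tested. With 2 libraries a population, small differences and regions of few counts are the least certain.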

Other observations

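The share of regions higher in bIP than at both ends differed between windows along the chromosomes, which were looked up after their values were seen. Among 2619 windows of 1000000 bases with at least 20 regions tested, the median share of such regions was 5.19%, and the 95th percentile was 14.2%. The following are the 5 windows with the highest shares among the 15 that held the most such regions. The window of chromosome 10 from 125000001 to 126000000, with EBF3, an early neuronal differentiation factor, and MGMT, a DNA repair gene, had 27 of 93 regions (29%) higher than both ends and 0 lower. In chromosome 2A from 6000001 to 7000000, with CMPK2 and RNF144A, the share was 24 of 98 (24.5%). In chromosome 17 from 34000001 to 35000000, with RAI1 and 7 other protein-coding genes, it was 28 of 128 (21.9%). In chromosome 3 from 45000001 to 46000000, with LARS2 and LIMD1, it was 22 of 107 (20.6%). In chromosome 12 from 129000001 to 130000000, with EP400 and ULK1, it was 22 of 113 (19.5%). Neighbouring regions share their surroundings, and no test of their spacing was made.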
